A study of Mus musculus with 6 samples.

Results

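The genes described are those of the mitochondrial ribosomal proteins, taken from the gene table by a symbol that starts with Mrpl or Mrps and continues with a number. The rule found 75 genes among 14665, of which 45 carry the large subunit name (Mrpl) and 30 the small subunit name (Mrps). One of the 30, Mrps36-ps1, is named as a pseudogene. RNA from C17.2 cells, an immortalized mouse neural stem cell (NSC) line, was sequenced after removal of ribosomal RNA, in 3 control libraries kept under standard oxygen and 3 hypoxia/reoxygenation (H/R) libraries. H/R meant 12 h of hypoxia at 5% oxygen followed by 48 h of reoxygenation. Neither group received a knockdown, and C17.2 is a single line, so the groups describe that line and not neural stem cells at large.

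The libraries held 7267809 to 8371882 gene counts in the control group and 15639751 to 16830389 in the H/R group, so that depth and treatment go together. When the H/R libraries were thinned to the median control total, the numbers of members that rose and fell stayed at 9 and 12. Of the neural stem cell markers, Vim, Nes and Sox2 averaged 1221, 195.7 and 29.1 CPM (counts scaled to a common library size) in control cells, while Gfap, a marker of astrocytes, had no count there, and the fibroblast collagen gene Col1a1 averaged 4319 CPM. Msi1 was at 9.65 CPM, and Sox1, Pax6, Prom1 and Fabp7 were not analysed here. With H/R, Nes rose (log2 fold change 0.76), while the other 3 tested neural stem cell markers did not pass, the lowest at -0.51. The 2 tested markers of the oligodendrocyte lineage went in opposite directions, Pdgfra higher (1.35) and the other lower (-0.98). The only tested neuron marker, Map2 (-1.14), and 2 of 4 fibroblast markers, Acta2 (-1.12) and Pdgfrb (-0.36, adjusted p = 0.0358, edgeR), fell. Their part in the results was not tested. Fewer transcripts per cell and fewer expressing cells cannot be told apart in such bulk RNA. It is not stated whether libraries of the same group derive from separate cultures. The p-values therefore reflect library-to-library spread, which may be technical.

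Mitochondria have ribosomes of their own, which make the few membrane subunits of the respiratory chain that mitochondrial DNA encodes. Their RNA comes from mitochondrial DNA, but every protein of the mitochondrial ribosome is encoded in the nucleus, made in the cytosol and imported. The small subunit holds the decoding site, and the large subunit forms the peptide bond and holds the exit tunnel, the stalk that recruits translation factors and the central protuberance. Some of the proteins have relatives in bacterial ribosomes, and others are found in mitochondria alone.

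After H/R treatment the mitochondrial ribosomal protein genes did not move as a block. Of the 72 members with enough counts to be tested, 9 rose and 12 fell in edgeR's quasi-likelihood test at an adjusted p under 0.05, and 51 did not pass. Together 29.2% of the tested members passed, beside 37.8% of all 11104 genes tested. Rises made up 12.5% of the members and 18.8% of all genes, and falls 16.7% and 19.0%. The median log2 fold change of the members was -0.01, with quartiles at -0.29 and 0.38, beside a median of 0.01 over all genes tested. Library values are given in CPM scaled by trimmed mean of M-values (TMM) factors, and the log2 fold changes with their standard errors (SE) come from the same fit, with Benjamini-Hochberg adjustment over all genes tested.

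The large and the small subunit both had members in each direction. Among 43 tested large subunit genes 7 rose and 6 fell, and among 29 tested small subunit genes 2 rose and 6 fell. In either direction 30.2% of the large and 27.6% of the small subunit genes passed, beside 37.8% of all genes tested. Rises made up 16.3% of the large and 6.9% of the small subunit genes. Of all genes tested 18.8% rose and 19.0% fell. The medians of the large and the small subunit genes were 0.02 and -0.04 on the log2 fold change scale. The difference between the subunits was not tested, because the genes of a subunit are not replicates. When 1 library was left out, the number of members passing went down to 12 without H/R replicate 1 (5 higher and 7 lower). Calls over all genes also went down without that library, from 2087 higher and 2109 lower to 1585 and 1627. Without that library 3 large subunit genes rose and 3 fell, without control replicate 2 or H/R replicate 2 the large subunit genes that rose numbered 4, and without control replicate 3 the small subunit genes that rose numbered 4.

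The split between rises and falls depended on the scaling. Without TMM factors, which were 0.920 to 0.938 in the controls and 1.07 to 1.08 in the H/R libraries, 20 members rose and 7 fell, with 13 and 4 in the large and 7 and 3 in the small subunit. The median of all genes then stood at 0.22 and that of the members at 0.21, and 3704 genes rose and 1272 fell in the whole table. Relative to all genes the members therefore sat at the middle under both scalings.

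**Figure D1:**
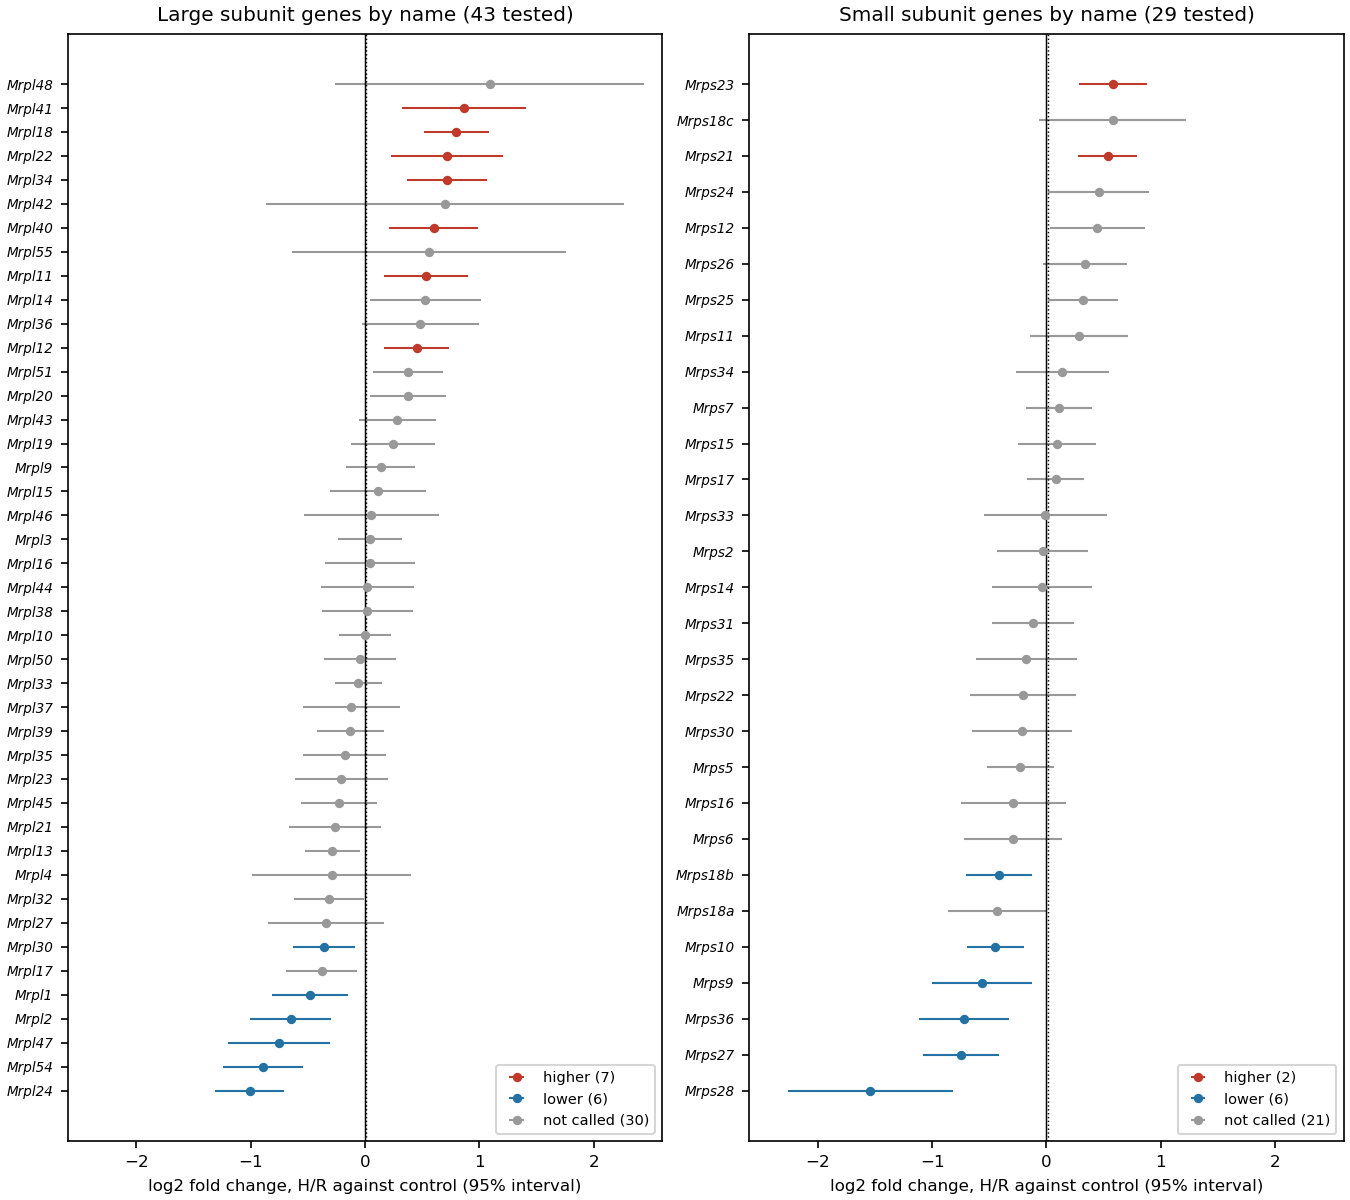
Log2 fold change of H/R against control with its 95% interval (x axis) for each tested member (y axis), large subunit genes on the left and small subunit genes on the right. Red marks genes that rose, blue genes that fell and grey genes that did not pass, and the dotted line is the median of all genes tested. Both panels hold red and blue genes, 7 and 6 on the left and 2 and 6 on the right, with most members in grey around 0.

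Changes were moderate in size. Under the thresholds of the study, a change of 2-fold or more with an unadjusted p under 0.05, only Mrpl24 and Mrps28 passed, both lower, which is 2.78% of the tested members beside 11.2% of all genes tested. The 95% interval of the log2 fold change lay within -1 and 1 for 55 of the 72 members (76.4%), beside 64.9% of all genes. The control and H/R libraries did not overlap for 31 members (43.1%), beside 49.7% of all genes, and 20 of the 21 members that passed were among them, Mrpl30 being the exception. Just outside the threshold stood Mrpl17, with an adjusted p of 0.0501 in edgeR's test, and Mrpl51, with 0.0502.

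Mrpl18, Mrps21, Mrpl34 and Mrps23 had the smallest adjusted p among the genes that rose. Mrpl18 (ENSMUSG00000057388, chromosome 17, 12911349 to 12916345, minus strand, mm10) encodes a protein of the central protuberance related to the bacterial protein that binds 5S ribosomal RNA. Its values were 35.4, 35.2 and 27.7 CPM in control cells and 55.9, 54.3 and 61.2 CPM after H/R. Every H/R library stood above every control library, with a log2 fold change of 0.80 (SE 0.13, adjusted p = 0.000407, edgeR). Of its exon bases 11.6% are shared with Tcp1 on the other strand, and Tcp1 did not pass, with a log2 fold change of -0.15 (SE 0.09, adjusted p = 0.226).

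Mrps21 (chromosome 3, 95862634 to 95871519, minus strand), a small subunit gene with a bacterial relative, was read at 37.1, 43.6 and 46.4 CPM in control cells and at 62.6, 59.8 and 62.1 CPM after H/R. The groups did not overlap, and the log2 fold change was 0.54 (SE 0.12, adjusted p = 0.00322, edgeR). Mrpl34 (chromosome 8, 71464959 to 71465747, plus strand), whose product is one of the smallest bacterial-type proteins of the large subunit, went from 15.3 ± 1.64 to 25.2 ± 1.14 CPM (SD, n = 3 libraries each), a log2 fold change of 0.72 (SE 0.16, adjusted p = 0.00385). Mrps23, a protein of the small subunit found in mitochondria and not in bacteria, went from 30.6 ± 4.39 to 45.8 ± 1.27 CPM, a log2 fold change of 0.58 (SE 0.14, adjusted p = 0.0048). These 4 genes passed whichever library was left out.

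The other 5 genes that rose, all of the large subunit, were less stable. Mrpl41, a mitochondria-specific protein, was low in control cells, at 4.90, 6.88 and 7.78 CPM, and reached 12.8, 11.8 and 10.9 CPM after H/R (log2 fold change 0.86, SE 0.25, adjusted p = 0.0154). Its adjusted p was 0.0696 without H/R replicate 1 and 0.0516 without H/R replicate 2. Mrpl40, of the central protuberance, rose from 20.9 ± 3.33 to 31.6 ± 5.71 CPM (log2 fold change 0.60, SE 0.18, adjusted p = 0.0183), and its adjusted p was 0.0592 without control replicate 2 and 0.0953 without H/R replicate 3. The remaining 3, Mrpl11, Mrpl12 and Mrpl22, belong to the stalk and the peptide exit and are given with those groups.

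Among the genes that fell, Mrpl24 changed with the smallest adjusted p. Mrpl24 (ENSMUSG00000019710, chromosome 3, 87919506 to 87923672, plus strand) encodes a protein beside the exit of the peptide tunnel. Control libraries held 48.3, 42.1 and 39.1 CPM and H/R libraries 20.5, 22.3 and 21.7 CPM. The H/R libraries lay close together and below every control, with a log2 fold change of -1.01 (SE 0.14, adjusted p = 0.000105, edgeR). Its exons share 43.6% of their bases with Rrnad1 on the other strand, for which the log2 fold change was -0.18 (SE 0.16, adjusted p = 0.405). The strand setting of the counting is not stated, so reads of the 2 genes in the shared part may not be told apart.

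Mrpl54, a mitochondria-specific protein of the large subunit, fell from 28.9, 28.1 and 32.8 CPM to 16.2, 17.9 and 14.1 CPM. Its log2 fold change was -0.89 (SE 0.16, adjusted p = 0.000791). Mrps27, a small subunit protein with the repeats typical of RNA-binding proteins of organelles, went from 30.3, 34.3 and 32.8 CPM to 20.0, 16.9 and 21.2 CPM, a log2 fold change of -0.74 (SE 0.15, adjusted p = 0.00201). Both genes had every H/R library below every control library and passed whichever library was left out.

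Mrps28, a small subunit gene of low level, had the largest fall in log2 terms among the tested members, but also the widest interval among those that passed. It was read at 6.83, 9.48 and 11.5 CPM in control cells and at 4.01, 2.61 and 2.88 CPM after H/R (log2 fold change -1.54, SE 0.33, 95% interval -2.26 to -0.82, adjusted p = 0.00272). Mrpl2, which lies near the peptidyl transferase centre in bacterial ribosomes, had control values of 30.2, 30.6 and 31.1 CPM and H/R values of 16.8, 23.3 and 18.5 CPM (log2 fold change -0.65, SE 0.16, adjusted p = 0.00699). The controls of Mrpl2 were nearly equal, and the spread was in the H/R group. Mrps10, which sits in the head of the small subunit, fell from 67.0 ± 6.59 to 49.2 ± 2.20 CPM (log2 fold change -0.45, SE 0.11, adjusted p = 0.00784), and without scaling factors its adjusted p was 0.125.

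Mrpl47, Mrpl1, Mrps9, Mrpl30 and Mrps18b made up the remaining falls, apart from Mrps36. Mrpl47, at the peptide exit, fell from 21.6 ± 5.42 to 12.8 ± 1.41 CPM with a log2 fold change of -0.75 (SE 0.21, adjusted p = 0.0119), and its adjusted p was 0.0501 without control replicate 3 and 0.0559 without H/R replicate 1. Mrpl1, of the mobile L1 stalk, fell from 30.6 ± 4.04 to 21.9 ± 0.875 CPM, a log2 fold change of -0.48 (adjusted p = 0.0257). Its call was lost without control replicate 3 or any 1 H/R library, at adjusted p from 0.0589 to 0.0936.

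Mrps9 and Mrpl30 passed narrowly. Mrps9 fell from 27.7 ± 3.13 to 18.7 ± 5.17 CPM, a log2 fold change of -0.56 (adjusted p = 0.0445), and did not pass without control replicate 2, control replicate 3, H/R replicate 1 or H/R replicate 2 (adjusted p from 0.088 to 0.183). Mrpl30 had control values of 59.9, 73.9 and 74.1 CPM and H/R values of 49.1, 52.5 and 60.1 CPM, so the groups overlapped, and the log2 fold change was -0.36 (SE 0.13, adjusted p = 0.0368). Its adjusted p was 0.0579 after thinning and from 0.0787 to 0.155 without control replicate 2, control replicate 3, H/R replicate 1 or H/R replicate 2. Without scaling factors Mrpl1, Mrps9, Mrpl30 and Mrps18b did not pass either, with adjusted p from 0.176 to 0.357.

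**Figure D2:**
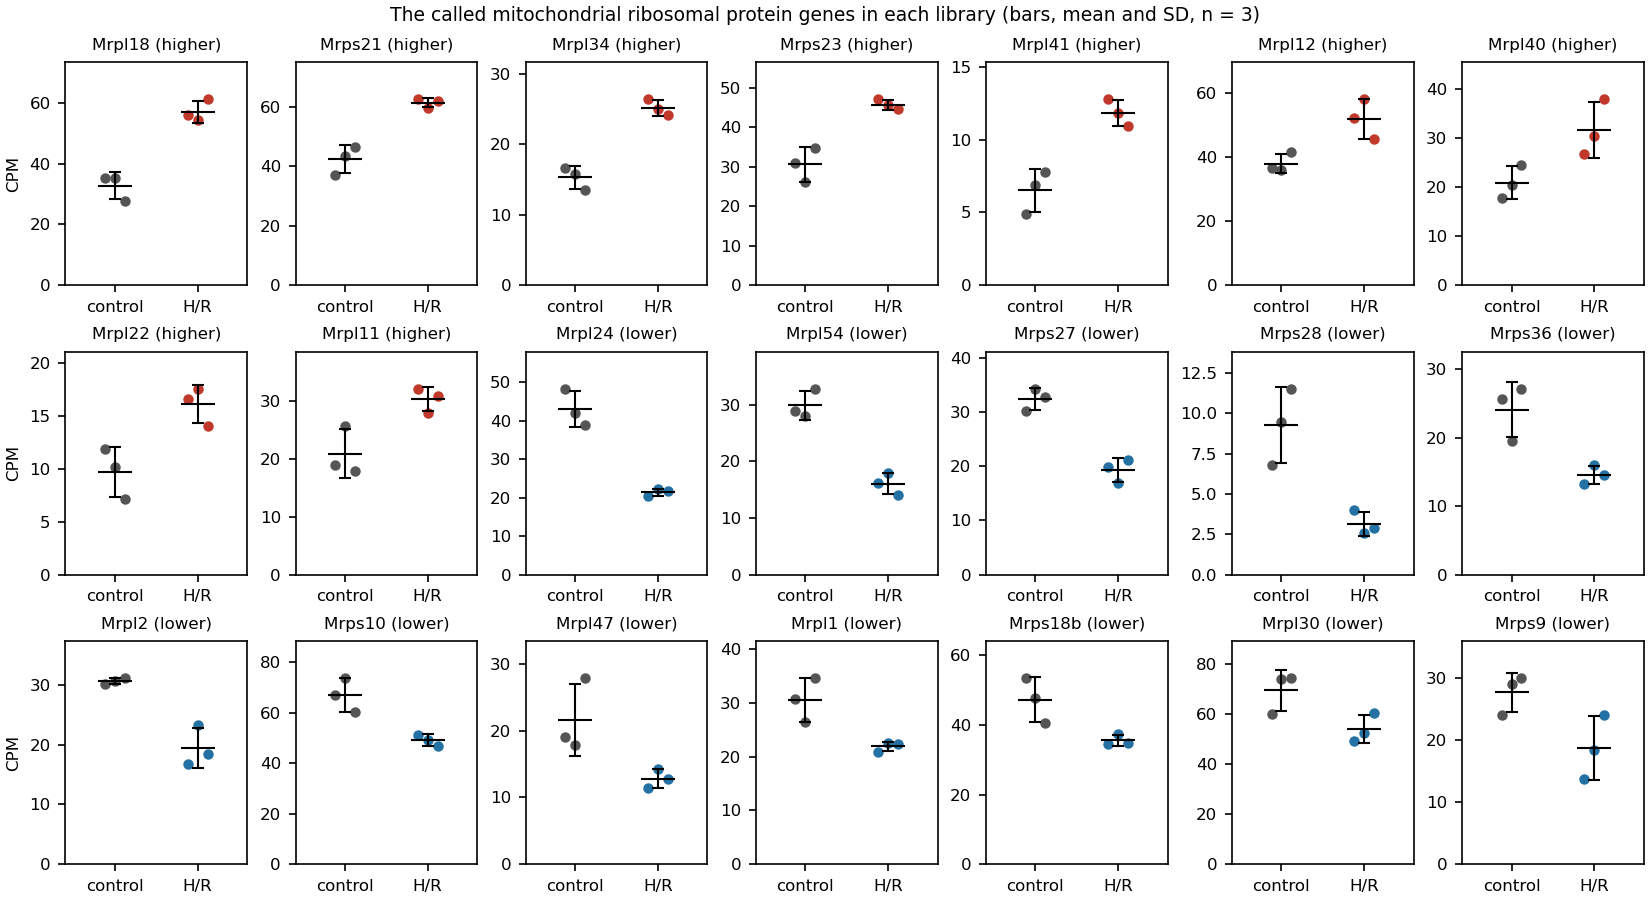
CPM (y axis, from 0) of each of the 21 members that passed, in the 3 control and 3 H/R libraries (x axis), with horizontal and vertical bars for the mean and SD. Grey points are controls, red H/R points belong to the 9 genes that rose and blue ones to the 12 that fell, and only in Mrpl30 do the groups overlap.

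The stalk of the large subunit binds the factors of elongation. Of the 3 genes listed for it here, Mrpl11 and Mrpl12 rose and Mrpl10 did not pass. That is 66.7% of only 3 genes, beside 37.8% of all genes tested. Mrpl54, which fell, was not on that list, so the list does not stand for every protein of that region. Mrpl12, whose protein has also been described as a partner of the mitochondrial RNA polymerase, was read at 36.7, 35.9 and 41.5 CPM in control cells and at 52.1, 58.0 and 45.6 CPM after H/R (log2 fold change 0.45, SE 0.13, adjusted p = 0.0161). Mrpl11, at the base of the stalk, had 18.9, 25.7 and 17.96 CPM in control cells and 32.1, 27.9 and 30.9 CPM after H/R (log2 fold change 0.54, SE 0.17, adjusted p = 0.0249). The groups did not overlap in either gene, but neither call held throughout. Mrpl12 had adjusted p from 0.055 to 0.0988 without control replicate 2, H/R replicate 1 or H/R replicate 2, and Mrpl11 from 0.0514 to 0.0916 without control replicate 1 or 3 or H/R replicate 1 or 3.

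Mrpl10, which anchors Mrpl12 to the ribosome, was among the members measured most closely. Its means were 66.0 ± 5.34 CPM in control and 66.0 ± 1.06 CPM in H/R libraries, and the 95% interval of its log2 fold change ran from -0.23 to 0.23. Mrpl33 and Mrpl13 were the others of the 3 members with the narrowest intervals. For Mrpl33, a small protein with a bacterial relative, the interval was -0.27 to 0.15, around means of 101.1 ± 6.998 and 97.1 ± 2.44 CPM. Mrpl13 had 104.2 ± 4.18 CPM in control and 85.5 ± 11.1 CPM in H/R libraries, with every H/R library below the controls and a log2 fold change of -0.29 that did not pass (SE 0.11, adjusted p = 0.0594). It passed without control replicate 3 (0.045) and without H/R replicate 3 (0.0292).

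The proteins around the exit of the peptide tunnel, where nascent chains meet the inner membrane, went in both directions. Of 8 genes 1 rose and 2 fell (37.5% in all, beside 37.8% of all genes tested), with a median log2 fold change of -0.22. Mrpl22, which lines the tunnel, rose from 11.9, 10.1 and 7.18 CPM to 16.6, 17.5 and 14.1 CPM (log2 fold change 0.72, SE 0.23, adjusted p = 0.0233). That call was lost without control replicate 2 or 3 or H/R replicate 1 or 2, at adjusted p from 0.0514 to 0.0934. Mrpl24 and Mrpl47 are the genes that fell. Mrpl23, Mrpl44 and Mrpl45, of which the last ties the ribosome to the membrane, had log2 fold changes of -0.21 (95% interval -0.61 to 0.20), 0.02 (-0.38 to 0.42) and -0.23 (-0.56 to 0.11).

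For the central protuberance, the crest of the large subunit, 6 genes were listed here, and 2 of them passed, Mrpl18 and Mrpl40, both higher. That is 33.3%, beside 37.8% of all genes tested. The median log2 fold change of the 6 was 0.33. All 6 carry an Mrpl name. Ict1, a large subunit protein without such a name, fell and is not on that list. Mrpl48 of the same group had the highest log2 fold change of all members, 1.09, but was read at 0.644, 1.17 and 0.449 CPM in control and 1.65, 1.37 and 1.88 CPM in H/R libraries. Its groups did not overlap, yet at this depth the 95% interval ran from -0.26 to 2.44 and the gene did not pass (adjusted p = 0.19, edgeR).

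Mrps12, Mrps16, Mrps22 and Mrps34 of the small subunit did not pass. Mrps12, which lies at the decoding centre, had control values of 17.8, 11.9 and 17.8 CPM and H/R values of 19.8, 23.5 and 21.2 CPM. All H/R libraries were above the controls, but the log2 fold change of 0.44 did not pass (SE 0.19, adjusted p = 0.0878), and did so without scaling factors (adjusted p = 0.0132). Mrps16, Mrps22 and Mrps34, in which human mutations are known to disturb mitochondrial translation, had log2 fold changes of -0.29 (95% interval -0.75 to 0.17), -0.20 (-0.67 to 0.26) and 0.14 (-0.27 to 0.54). Mrps34 shares 62.7% of its exon bases with Mapk8ip3 on the other strand, which fell with a log2 fold change of -0.84 (SE 0.10, adjusted p = 3e-05).

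The 3 paralogs of the bacterial S18 protein, which occupy different places in the mitochondrial ribosome, differed in their values. Mrps18b fell from 53.4, 47.8 and 40.4 CPM to 34.5, 37.2 and 34.8 CPM (log2 fold change -0.41, SE 0.13, adjusted p = 0.0275). The groups were apart, but the call was kept only when control replicate 3 was the library left out, and was otherwise lost at adjusted p from 0.0607 to 0.0968. Of the exon bases of Mrps18b, 59.1% are shared with Gm16279 on the other strand. Mrps18a, counted in the small subunit by name and in the large subunit by structure, had a log2 fold change of -0.43 (95% interval -0.86 to 0.00, adjusted p = 0.107). Mrps18c had control values of 9.79, 9.48 and 22.8 CPM and H/R values of 16.2, 22.2 and 23.9 CPM, with 1 control library inside the H/R range. Its log2 fold change of 0.58 did not pass (SE 0.30, adjusted p = 0.146), and without control replicate 3 it was 1.10 (adjusted p = 0.00179).

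Subunit membership by name and by structure is not the same. Mrps30 and Mrps18a are parts of the large subunit in structures of the mammalian ribosome, and Mrps36 is now known as a part of the 2-oxoglutarate dehydrogenase complex. Mrps36 fell from 25.7, 19.5 and 27.1 CPM to 13.2, 15.9 and 14.5 CPM (log2 fold change -0.72, SE 0.18, adjusted p = 0.00697), and passed whichever library was left out. Mrps30 had a log2 fold change of -0.21 (95% interval -0.65 to 0.22). Counted by structure, with the proteins that carry no Mrpl or Mrps name, 7 rose and 7 fell among 48 large subunit genes, and 2 rose and 5 fell among 28 small subunit genes.

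The naming of ribosomal proteins by structure separates proteins in a position shared with bacteria from those in a position found in mitochondria alone, among which it places Mrps18a and Mrps18b. Both classes were split between the directions. Subunits were taken by structure, but only genes with an Mrpl or Mrps name were counted. Ict1, which is classed as mitochondria-specific and fell, is therefore left out. In the large subunit 10 of 29 genes with a universal or bacterial relative passed (5 higher and 5 lower). Of those named as mitochondria-specific 3 of 16 did (2 higher and 1 lower). In the small subunit the counts were 4 of 16 (1 higher and 3 lower) and 3 of 10 (1 higher and 2 lower). The shares passing lay between 18.8% and 34.5%, beside 37.8% of all genes tested. The medians of the 4 classes lay between -0.07 and 0.02 on the log2 fold change scale, beside 0.01 for all genes.

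Levels were compared per length, as CPM per kb of the principal transcript averaged over the 6 libraries, for the 73 members with a length. They ran from 0.11 to 106.4 CPM per kb, with a median of 16.2 (large subunit 16.3, small subunit 15.96), and 42 members lay within 2-fold of that median. The highest per length was Mrps21 with 106.4 CPM per kb, followed by Mrpl13 with 77.6, Mrpl30 with 63.6, Mrps10 with 57.1 and Mrps6 with 51.5. Mrpl10 at 38.6 was the next, and the third of the large subunit among members with a length. Mrpl33, at 101.1 CPM in control and 97.1 CPM in H/R libraries, has no length here and could not be ranked. Mrps6 had 32.7, 53.1 and 58.1 CPM in control and 35.9, 33.4 and 48.0 CPM in H/R libraries, and its log2 fold change of -0.29 did not pass (SE 0.20, adjusted p = 0.272) but did without control replicate 1 (0.0145). It shares 36.0% of its exon bases with Slc5a3 and another gene on the same strand.

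Too few counts to be tested were found for 3 members. Mrpl28 and Mrpl49 were listed at 0.110 and 0.174 CPM per kb, at most 13 counts in any library, and Mrps36-ps1 at 0.544 ± 0.136 CPM in control and 0.152 ± 0.0836 CPM in H/R libraries. In every library the count of Mrpl28 equals that of a lncRNA transcript listed at the same gene. Its level may therefore not be that of the coding mRNA. Mrpl42, Mrpl48 and Mrpl55 were tested at 0.754 to 2.58 CPM on group average, and the limits of their log2 fold changes were wide. Reads that fit several places were removed from the m6A immunoprecipitation and input libraries of the study, and for the RNA libraries counted here their treatment is not stated. Such reads bear on genes with near-identical copies such as Mrps36 and Mrps36-ps1.

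**Figure D3:**
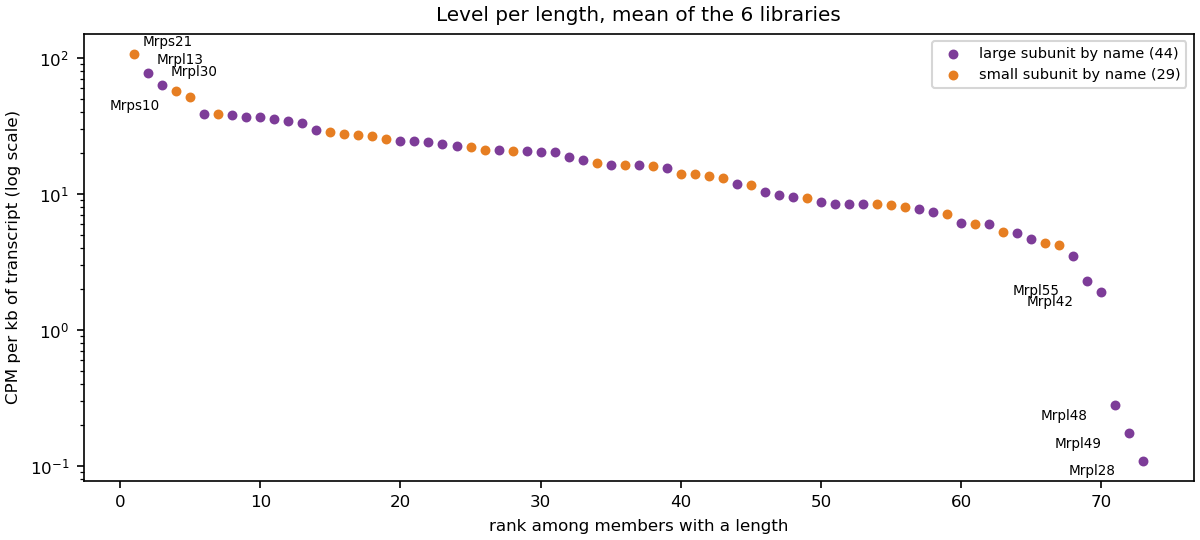
Level per length (y axis, CPM per kb of transcript on a log scale, mean of the 6 libraries) of the 73 members with a length, in order of level (x axis), purple for the large and orange for the small subunit. Of them 42 lie within 2-fold of the median of 16.2 CPM per kb, with Mrps21 at the top and Mrpl48, Mrpl49 and Mrpl28 far below the rest.

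As a share of all gene counts the members took 0.185%, 0.188% and 0.196% in control replicates 1 to 3 and 0.211%, 0.218% and 0.216% in H/R replicates 1 to 3. Every H/R library stood above the controls. The large subunit genes took 0.116% ± 0.0016 in control and 0.133% ± 0.00338 in H/R libraries, and the small subunit genes 0.0734% ± 0.0048 and 0.0822% ± 0.000897 (SD, n = 3 libraries each). These shares use the plain library totals without scaling factors. On that scale the middle gene of the whole table was also higher, at 0.22 beside 0.21 for the members. The share of nuclear respiratory chain genes rose too, from 0.529% to 0.605%. That of the cytosolic ribosomal protein genes fell, from 3.67% to 2.35%, and that of the mitochondrially encoded mRNAs overlapped between the groups. The higher shares therefore do not set the members apart from the typical gene. The ratio of large to small subunit counts is free of any scaling, and was 1.70, 1.55 and 1.505 in control and 1.58, 1.66 and 1.59 in H/R libraries. The H/R ratios lay within the range of the controls. They are of RNA counts with subunits taken by name, so Mrps18a, Mrps30 and Mrps36 count as small. The balance of the subunits as proteins was not measured.

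**Figure D4:**
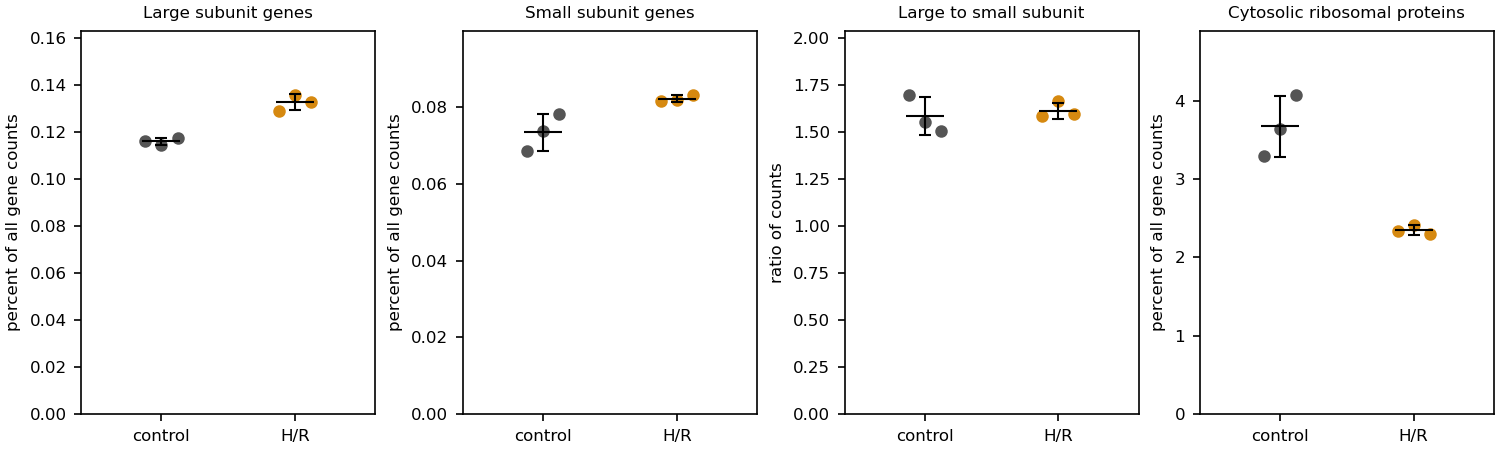
Percent of all gene counts (y axes, from 0) held by large subunit genes, small subunit genes and cytosolic ribosomal protein genes, and the ratio of large to small subunit counts, in each control and H/R library (x axes). Bars give the mean and SD of 3 libraries. Shares are without scaling factors, under which the middle gene of the whole table is also higher in H/R. The shares of the large and small subunit genes are higher in H/R. That of the cytosolic ribosomal protein genes is lower (3.67% and 2.35%), and the ratio overlaps between the groups.

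Genes for the proteins of the cytosolic ribosome were counted in the same fit. Of 78 tested 73 fell (93.6%) and 1 rose, Rps27l, a gene known as a target of p53. Their median log2 fold change was -0.84, and -0.62 without scaling factors. Rpl12, Rpl13a and Rpl3, with the smallest adjusted p, had log2 fold changes of -1.35, -1.17 and -1.09. The call of Rps27l (0.33, adjusted p = 0.0115) was lost without control replicate 2 (0.0619).

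Nuclear genes of the respiratory chain, many of whose products join subunits made by the mitochondrial ribosome, were counted as well. Of 74 tested, 7 rose and 12 fell (25.7% in all, beside 37.8% of all genes), and their median log2 fold change was -0.03. The rises numbered 2 without control replicate 2 or H/R replicate 2 and 3 without H/R replicate 1, and the falls 7 without H/R replicate 1. Without scaling factors 27 rose and 3 fell. Ndufa3 of complex I (0.76, SE 0.15), Atp5g3 of the ATP synthase (0.45, SE 0.11) and Sdhd of complex II (0.35, SE 0.11) were higher, and the call of Sdhd was lost without control replicate 2, H/R replicate 1 or H/R replicate 2 (adjusted p from 0.0676 to 0.0943). Lower were Ndufb9 of complex I (-0.55, SE 0.10), Cox7a2l (-0.56, SE 0.13), which joins complexes into supercomplexes, and Cox6a2, a muscle form of a cytochrome oxidase subunit at 2.53 CPM in control and 0.0748 CPM in H/R libraries.

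The table holds 5 mitochondrially encoded mRNAs, mt-Co3, mt-Nd3, mt-Nd4, mt-Nd4l and mt-Nd5. Values of mt-Co3 ran from 285.6 to 10260 CPM in the controls and from 764.7 to 3376 CPM after H/R, and no direction can be read from them. Those of mt-Nd3 and mt-Nd4l also spread widely between replicates, while mt-Nd4 and mt-Nd5 were closer. Only mt-Nd5 passed, from 986 ± 30.5 to 850.7 ± 32.2 CPM (log2 fold change -0.21, SE 0.08, adjusted p = 0.0405). That call was lost without control replicate 2 or any 1 H/R library (adjusted p from 0.0819 to 0.144), and without scaling factors the log2 fold change was 0.00.

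**Figure D5:**
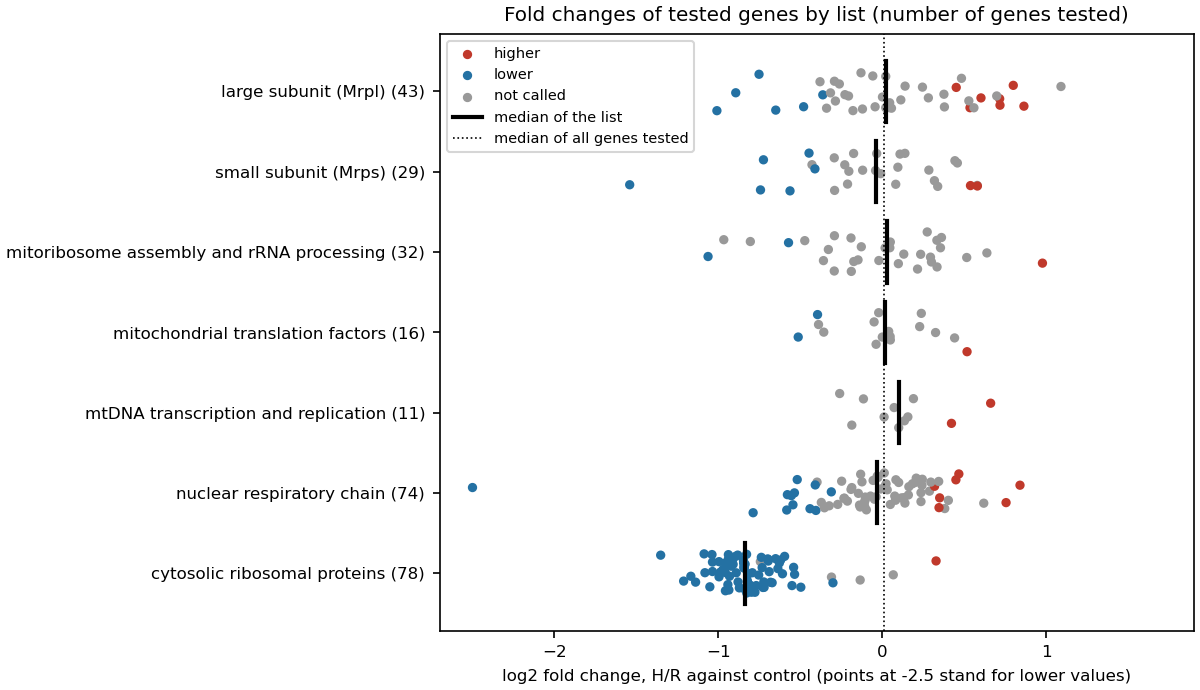
Log2 fold change of H/R against control (x axis) of each tested gene in 7 lists (y axis, number tested in brackets), coloured by call, with the median of each list as a black bar and the median of all genes as a dotted line. Both subunits of the mitochondrial ribosome and the respiratory chain spread around 0, and the cytosolic ribosomal proteins lie around -0.84. Cox6a2, at -4.87, is drawn at the left edge.

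The factors that build and serve the mitochondrial ribosome were counted against the same 37.8% of all genes. Of the 5 mitoribosomal proteins whose symbols in the table do not start with Mrpl or Mrps, 1 fell. This was Ict1 (also called Mrpl58), a peptide release factor built into the large subunit, with 33.8, 35.1 and 31.1 CPM in control and 18.7, 20.6 and 21.1 CPM in H/R libraries (log2 fold change -0.73, SE 0.15, adjusted p = 0.00156). Dap3 (log2 fold change 0.00), Aurkaip1 (0.03), Mrp63 (0.04) and Gadd45gip1 (-0.33) did not pass. The 95% intervals were narrowest for Aurkaip1, from -0.30 to 0.36, and widest for Mrp63, from -0.55 to 0.64.

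Genes of ribosome assembly and ribosomal RNA processing in mitochondria had 32 tested entries, Nsun4 being listed with 2. Of these entries 1 rose and 2 fell (9.38% in all). Noa1, a GTPase needed for mitochondrial translation, went from 12.2, 14.03 and 12.4 CPM to 23.5, 24.4 and 28.4 CPM (log2 fold change 0.98, SE 0.17, adjusted p = 0.000585), so the H/R libraries were well above the controls. One of the 2 entries named Nsun4, an RNA methyltransferase of ribosome assembly, fell (-1.06, SE 0.23, adjusted p = 0.0028) and the other did not pass (-0.33, SE 0.46). Spg7, a subunit of the protease that processes Mrpl32, fell as well (-0.57, SE 0.14, adjusted p = 0.00634), but did not pass without scaling factors (adjusted p = 0.0555). The rises numbered 2 without control replicate 1 or 2 and 3 without scaling factors, and the falls 4 without control replicate 3 and 1 without scaling factors.

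Of 16 translation factors and membrane insertion genes 1 rose and 2 fell (18.8% in all), and of 11 genes of mitochondrial DNA transcription and replication 2 rose (18.2%). Polg, the mitochondrial DNA polymerase, rose from 38.1 ± 3.55 to 60.4 ± 0.487 CPM (log2 fold change 0.66, SE 0.12, adjusted p = 0.000664). Ssbp1, the single-strand binding protein of mitochondrial DNA, was higher (0.42, adjusted p = 0.0485), and so was Taco1, a translational activator of cytochrome oxidase (0.52, adjusted p = 0.0445). Lrpprc, which stabilises mitochondrial mRNAs, was lower (-0.40, adjusted p = 0.0252), and so was Oxa1l, the insertase of the inner membrane (-0.51, adjusted p = 0.0476). The last 4 were near the threshold. Taco1 was lost without any 1 of the 6 libraries (adjusted p from 0.0539 to 0.136), Ssbp1 without any but control replicate 1 (0.08 to 0.167), and Lrpprc and Oxa1l likewise without any but control replicate 1 (0.0547 to 0.12 and 0.0547 to 0.174). Without scaling factors Lrpprc and Oxa1l did not pass (0.262 and 0.219), and with DESeq2 Taco1 and Ssbp1 did not (0.076 and 0.0625).

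The promoters of mitochondrial ribosomal protein genes are known to hold sites for NRF1, ETS family factors such as GABP, and YY1. RefSeq promoters (GRCm38.p6, 250 bases before to 50 after each start) were matched by symbol for 65 of the 75 members. The consensus of NRF1, with 1 open base, stood on either strand in 12 of them (18.5%), beside 5.19% of 27025 genes with a promoter and 12.3% of the 8289 that were tested here. CCGGAAG (ETS) stood in 22 (33.8%), beside 9.93% and 21.1%, and AANATGGCG (YY1) in 10 (15.4%), beside 2.76% and 6.53%. At least 1 of these words was found in 38 of the 65 members and none in 27. In the members that rose the NRF1 word stood in 2 of 9 and the ETS word in 5 of 9, and in those that fell each stood in 2 of 10. The YY1 word stood in 0 of 9 that rose and 1 of 10 that fell. Of the 44 members that did not pass, 8 held the NRF1 word, 15 the ETS word and 9 the YY1 word. The bases before the start are shown for 2 genes that rose and 2 that fell, because the NRF1 word and the ETS word each stand there in a gene of either direction. Each line gives the 250 bases before the start, 5′ to 3′ in the direction of the gene, with the motif in capitals. An ETS word of Mrps21 and a YY1 word of Mrps27 lie after the start and are not shown.

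Mrps21 (rose, NRF1 word at -91 to -82, chr3:95871515-95871764, minus strand): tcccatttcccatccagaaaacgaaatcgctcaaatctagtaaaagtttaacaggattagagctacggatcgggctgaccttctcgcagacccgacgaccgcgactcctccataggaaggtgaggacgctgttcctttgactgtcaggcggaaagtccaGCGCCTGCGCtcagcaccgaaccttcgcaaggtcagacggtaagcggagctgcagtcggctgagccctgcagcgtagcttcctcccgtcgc
Mrpl30 (fell, NRF1 word at -83 to -74, chr1:37890227-37890476, plus strand): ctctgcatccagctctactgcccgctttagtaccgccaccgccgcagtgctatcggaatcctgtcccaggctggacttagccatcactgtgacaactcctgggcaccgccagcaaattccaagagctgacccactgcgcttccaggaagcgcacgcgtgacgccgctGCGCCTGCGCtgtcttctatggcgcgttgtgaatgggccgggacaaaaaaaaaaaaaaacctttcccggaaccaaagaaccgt
Mrpl34 (rose, ETS word at -37 to -31, chr8:71464676-71464925, plus strand): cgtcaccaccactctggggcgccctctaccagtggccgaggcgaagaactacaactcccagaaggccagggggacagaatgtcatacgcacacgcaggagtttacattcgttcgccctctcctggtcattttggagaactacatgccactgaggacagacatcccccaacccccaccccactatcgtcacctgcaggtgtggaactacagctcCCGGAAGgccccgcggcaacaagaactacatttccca
Mrps27 (fell, ETS word at -48 to -42, chr13:99344536-99344785, plus strand): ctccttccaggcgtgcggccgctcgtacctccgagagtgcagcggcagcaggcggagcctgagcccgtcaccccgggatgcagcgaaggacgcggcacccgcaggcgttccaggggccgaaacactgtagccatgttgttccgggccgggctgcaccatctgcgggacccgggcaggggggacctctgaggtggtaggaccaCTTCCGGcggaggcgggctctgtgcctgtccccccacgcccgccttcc

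The NRF1 words of Mrps21 and Mrpl30 and the ETS word of Mrps27 are on the strand opposite to the gene, and that of Mrpl34 is on the same strand. These matches are of letters only, and no binding was measured.

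Many members start close to another gene on the other strand. Within 1000 bp of each other lay the starts of 31 such pairs, which involve 32 members, since Mrps11 and Mrpl46 are each other's partner. Both genes were tested in 26 pairs. In 2 pairs both passed in the same direction, in none did they pass in opposite directions, in 7 only the member passed, in 2 only the partner, and in 15 neither. Of all genes tested 37.8% passed, and of the members 29.2%. Pairs without a member were not counted, and whether partners change jointly was not tested. Mrpl40 rose, and so did Hira, a histone chaperone gene that starts 175 bp away (log2 fold change 0.42, SE 0.10, adjusted p = 0.00466). Mrpl54 fell, and so did Apba3, 26 bp away (-0.63, SE 0.21, adjusted p = 0.0332). Mrps27 fell while Ptcd2, 81 bp away, stayed at 33.8 ± 3.64 and 33.9 ± 2.20 CPM. Eme1, beside Mrpl27, rose by 2.79 on the log2 fold change scale (SE 0.36, adjusted p = 5.86e-05) from a low level, while Mrpl27 had a log2 fold change of -0.34 (95% interval -0.85 to 0.17).

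Other transcripts at these genes were also counted. The lncRNA table holds 97 transcripts placed at 49 members, 77 of them overlapping an exon in the sense direction, so that their reads may come from the coding gene. Of these 97, 24 had enough counts to be tested and 0 passed in edgeR's test, with 0 at an unadjusted p under 0.05 as well, beside 4.93% of all 6779 lncRNA transcripts tested. The most abundant outside sense overlap of exons was Gm16310, in an intron of Mrps6, with 64, 83 and 73 counts in control and 121, 80 and 111 counts in H/R libraries (log2 fold change -0.50, SE 0.27, adjusted p = 0.371). The circRNA table of 2805 lines holds 1 from a member, an exonic circle of Mrpl13 (chromosome 15, 55540123 to 55543384), with 2 reads in H/R replicate 3 and none in the other libraries.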

How the data were processed

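RNA of C17.2 cells was measured in 3 control and 3 H/R libraries. The deposited gene table holds raw counts per gene, which the authors made from reads trimmed with cutadapt 1.9.3, aligned to mm10 with HISAT2 2.0.4 and counted with HTSeq 0.9.1. The lncRNA and circRNA tables also hold counts, and 18 other columns of per-sample values over the 3 tables were not used. Strand setting and annotation release are not given in the sources used here.

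Of 14665 genes, the 11104 that passed filterByExpr were fitted in R 4.3.3 with edgeR 4.0.16 (TMM, two-sided quasi-likelihood test without covariates, Benjamini-Hochberg adjustment over all genes fitted, adjusted p under 0.05). The fit was tested on simulated data. Coordinates, overlaps and principal transcript lengths came from GENCODE vM21, in which 74 members were found by ID. Mrpl33 has no coordinates here. Alternatives comprised the exact test of edgeR, DESeq2 1.42.0, size factors by RLE, no scaling, other filters, thinning, a replicate block, each library left out and other thresholds. The members and the gene lists were chosen with earlier results of these data known. Members named individually were up to 8 per direction with the smallest adjusted p, 3 per subunit with the highest level per length, 3 with the narrowest intervals and those fixed by role. Mrpl1, Mrps9, Mrpl17, Mrpl51, Mrpl48, Mrpl27, the members not tested or of very low level and the partners named beside members were added after their values were seen, and so were Hira, Apba3, Ptcd2 and Eme1. From the other lists up to 3 per direction were named, and all mitoribosomal proteins without an Mrpl or Mrps name. Mrpl52, Mrpl53, Chchd1, Ptcd3 and Ngrn were not analysed here. Counts of PCR-amplified reads are not independent molecules.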

Additional observations from a re-analysis of the deposited data

How the results depend on the processing

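With DESeq2, the exact test, RLE factors, no filter, a filter of 1 CPM in 3 libraries and thinning, 21 to 23 members passed, 9 or 10 higher and 12 or 13 lower. Without scaling factors 20 rose and 7 fell (large subunit 13 and 4, small subunit 7 and 3), with medians of 0.211 for all members and 0.235 for the large subunit. At a fold change of 2 and unadjusted p under 0.05, 2 members passed, 0 higher and 2 lower (large subunit 0 and 1, small subunit 0 and 1). At an adjusted p under 0.01, 11 passed, 4 higher and 7 lower (large subunit 2 and 3). Leaving out 1 library gave 12 to 23 members passing, 5 to 10 higher and 7 to 13 lower, with 3 to 8 higher and 3 to 7 lower in the large subunit and 2 to 4 higher in the small subunit. Over all genes, leaving out 1 library gave 1571 to 2261 higher and 1622 to 2313 lower. Of the 21 calls of members, 11 held whichever library was left out.

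The sign changed for members near 0. Mrpl10 was at -0.010 with DESeq2, -0.012 with RLE factors, -0.001 with the filter of 1 CPM and from -0.047 to 0.061 with 1 library left out, where Mrpl44 ran from -0.022 to 0.079 and Mrps22 from -0.34 to 0.029. Without scaling factors Mrpl23 was at 0.008, Mrpl33 at 0.156, Mrps22 at 0.008 and Mrps30 at 0.002.

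Replicate numbers are shared by the groups, but the deviations of same-numbered libraries correlated at 0.0392, 0.00417 and 0.0219 over genes. Each control library correlated best with its own number, while H/R replicate 2 correlated best with control replicate 3. With the replicate block 22 members passed, 10 higher and 12 lower, Mrps18c being the addition (adjusted p = 0.0399), and Taco1, Ssbp1, Oxa1l and mt-Nd5 did not pass (0.0718, 0.055, 0.0667 and 0.0586). Depth limits Mrpl42, Mrpl48 and Mrpl55 most, whose intervals reached past 1 on the log2 scale.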

Other observations

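Over the 71 tested members with a transcript length, the log2 fold change had a Spearman correlation of -0.12 with that length and of 0.09 with GC content, beside 0.04 and 0.07 over 10903 genes of the whole table. With the mean CPM of the control libraries, which also enters the fold change, it was -0.40 over the 72 tested members and -0.21 over all 11104 genes tested. These are correlations across genes that share the same 6 libraries, given as a description. The median transcript was 1219 bases long in the 9 members that rose, 1055 in the 12 that fell and 1461 in the 50 members with a length that did not pass.

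At least 10% of the exon bases of 19 members is shared with another gene in the GENCODE models, in 2 of them (Mrps6 and Mrps18c) on the same strand. Among the members that passed, 6 are of this kind, which are Mrpl12, Mrpl18, Mrpl24, Mrpl47, Mrps18b and Mrps27. The partners in the gene table that were tested beside these 6, Tcp1, Rrnad1, Actl6a and Ndufb5, did not pass, with log2 fold changes from -0.23 to -0.07.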
